A study of Mus musculus with 24 samples.

Results

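The response of the Cthrc1-deficient mouse aorta to Ang-II/BAPN was read from 6 RNA-seq libraries, 3 from Cthrc1-/- mice given Ang-II/BAPN and 3 from Cthrc1-/- mice given PBS. They are the 6 of 24 libraries of the study that carry the knockout genotype and a title without a leading F, chosen by those labels alone. Treated animals received Ang-II/BAPN, that is angiotensin II together with the lysyl oxidase inhibitor β-aminopropionitrile, and their counterparts received phosphate-buffered saline (PBS). The labels give all animals of both groups as Cthrc1-/-. The other 18 libraries are wild type aortas and the F-titled libraries, in 6 groups of 3. They serve for comparison and also entered the fit. The gene filter and the estimate of spread behind each SE and p-value therefore rest on all 24 libraries. The labels give no age, strain, dose, duration, litter or date, and do not say what the F stands for, which part of Cthrc1 was deleted or in which cells. Since the labels only number the samples, p-values reflect only how far these samples vary, and part of that variation may be technical.

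Angiotensin II raises blood pressure and drives inflammation of the vessel wall, and β-aminopropionitrile blocks the enzymes that cross-link elastin and collagen, so that the combination weakens the aorta and is used as a mouse model of dissection. In such walls monocytes and neutrophils enter through adhesion molecules on the endothelium, fibroblasts lay down matrix, and smooth muscle cells lose contractile proteins. The Cthrc1 protein carries a short collagen-like stretch and is secreted by activated fibroblasts and smooth muscle of injured arteries. The comparison asks which genes respond to the treatment in animals of this genotype.

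Levels are given in CPM, read counts scaled to library size with TMM factors. CPM is not divided by transcript length, so that a level is compared between libraries and not between genes. A gene was called when the Benjamini-Hochberg adjusted p of edgeR's quasi-likelihood test, over 24623 tested genes, was under 0.05. Fold changes are log2 values of treated over PBS, each with its standard error (SE). The 6 libraries held 49487930 to 82040703 counts, and the 24 libraries of the fit 39002048 to 82040703. In bulk tissue, fewer cells of a type and less RNA per cell cannot be told apart.

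PBS replicate 2 stood apart from the other libraries. Its log2 CPM correlated with PBS replicates 1 and 3 at 0.927 and 0.929, against 0.966 between these, while the treated replicates correlated at 0.955 to 0.963. The 13 mitochondrially encoded messages summed to 142872, 102451 and 147016 CPM in the treated and 116107, 348663 and 159471 CPM in the PBS aortas, with the highest sum in PBS replicate 2. The small nuclear RNA Rn7sk read 0.537, 0.839 and 0.925 CPM in treated and 0.562, 6.16 and 0.406 CPM in PBS aortas, again highest in that library. Ddx3y, from the Y chromosome, was present in all 6 libraries at 55.6 to 98.9 CPM, whereas the F-titled libraries held at most 1.20 CPM of Ddx3y and 186 to 933 CPM of Xist. Counts without single libraries are given with the results that rest on them.

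Of the 24623 genes, 399 rose in treated knockout aortas (1.62%) and 19 fell (0.0772%). Among these 399 genes the median log2 fold change was 2.57, against -0.05 over all tested genes. In 324 of them the highest treated library was under 2 times the lowest. The test passes large and even rises most readily, so that these values describe the called genes and not the whole response. Before any test, all 3 treated libraries lay above all 3 PBS libraries in 3253 genes (13.2%) and below them in 2589 genes (10.5%). The number of calls moved with single libraries. It was 73 without PBS replicate 2, 95 without PBS replicate 1 and 196 without PBS replicate 3, and 273, 186 and 308 without treated replicates 1, 2 and 3. All 399 genes kept a positive log2 fold change in each of these fits, with medians of 2.41 to 2.76. Of 99 named genes that were called, 17 stayed called under every alternative that gave a value except the one with organ markers as covariates, which called no gene: C3ar1, Ccr2, Cd72, Csf3r, Ctss, Cx3cr1, Cybb, Fcgr4, Itgax, Ltbp2, Mmp12, Ncf4, Runx2, Spi1, Tlr1, Tlr9 and Vcam1. Leaving out each of the 6 libraries in turn left 26 of the 99 called throughout, and 72 lost the call without PBS replicate 2.

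**Figure D1:**
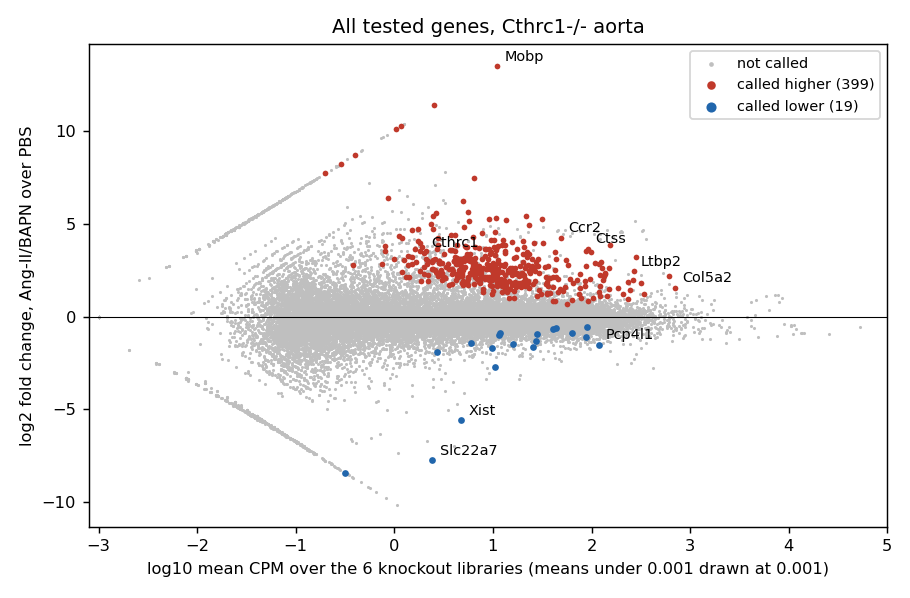
Each point is 1 of 24623 tested genes, with the log10 of its mean CPM over the 6 knockout libraries on the horizontal axis and the log2 fold change of Ang-II/BAPN over PBS on the vertical axis. The 399 genes called higher (red) outnumber the 19 called lower (blue), with Mobp the highest and Slc22a7 the lowest of the genes labelled. The diagonal lines of points at the left are genes without counts in one of the groups.

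The targeted gene itself was counted in every knockout aorta, and after Ang-II/BAPN its level reached that of PBS wild type aortas. Cthrc1, at chr15:39076932-39087121 on the plus strand of GRCm38, read 3.21, 5.903 and 1.79 CPM in the treated knockout aortas, against 0.183, 0.289 and 0.5101 CPM in the PBS knockout aortas. Wild type aortas of the same title set had 52.8, 68.02 and 52.2 CPM after Ang-II/BAPN and 2.21, 1.52 and 2.47 CPM after PBS. Every treated knockout library was above every PBS knockout library and below every treated wild type library, while treated knockout and PBS wild type libraries overlapped, with 2 of the 3 treated knockout libraries above all 3 of the PBS wild type. In knockout aortas the log2 fold change was 3.45 ± 0.61 (SE) with an edgeR adjusted p of 0.00639, and the call was lost without PBS replicate 1 or 2. Reads outside the deleted part of the gene would still be counted, so that these counts do not measure the deletion itself.

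Many macrophage and monocyte genes rose. Of 18 macrophage markers, 12 rose and none fell, with a median log2 fold change of 2.35, and the summed level of all 18 was 1014, 1023 and 891 CPM in treated and 262, 142 and 316 CPM in PBS aortas. Ccr2, the receptor that draws monocytes out of the blood towards Ccl2, read 106, 87.9 and 86.3 CPM in treated aortas against 6.27, 2.38 and 5.89 CPM in PBS aortas. The groups were far apart and its log2 fold change was 4.26 ± 0.67 (SE, edgeR adjusted p = 0.00326). Cx3cr1, the fractalkine receptor of monocytes and resident macrophages, had 40.1, 43.3 and 27.7 CPM in treated aortas and 4.01, 1.83 and 4.73 CPM in PBS aortas, a log2 fold change of 3.39 ± 0.50 (SE, edgeR adjusted p = 0.00289). Mpeg1, a pore-forming protein of macrophages, and Trem2, a lipid-sensing receptor, rose by 3.52 and 3.08 on the log2 scale. Tyrobp, an adaptor of activating myeloid receptors, and Fcgr1, the high-affinity receptor for IgG, rose by 2.73 and 3.88 on the log2 scale (edgeR adjusted p = 0.00539 and 0.00595).

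Among the members that did not pass the test were Lyve1, Folr2 and Mrc1. Lyve1 had 14.8, 22.3 and 15.5 CPM in treated and 14.7, 7.82 and 17.8 CPM in PBS aortas, and Folr2 had 9.89, 13.1 and 9.19 against 6.15, 4.88 and 10.96 CPM, so that both groups overlapped. Mrc1, the mannose receptor, read 75.4, 95.4 and 76.2 CPM in treated and 27.1, 7.29 and 38.02 CPM in PBS aortas. There the groups did not overlap, but the log2 fold change of 1.77 ± 0.61 (SE) had an edgeR adjusted p of 0.206. Gpnmb, a glycoprotein of lipid-laden macrophages, was the only member of the list with a negative log2 fold change, -0.45, and its groups overlapped. Without PBS replicate 2, 3 of the 18 markers were called, and without PBS replicate 1, 6; leaving out any other library left 10.

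Several proteases of macrophages and surface receptors of immune cells also rose. Ctss, which encodes cathepsin S, an elastin-degrading protease of macrophages, read 195, 167 and 153 CPM in treated aortas against 12.2, 8.49 and 19.5 CPM in PBS aortas. Its log2 fold change was 3.68 ± 0.55 (SE, edgeR adjusted p = 0.00301), and the lowest treated library was well above the highest PBS library. Mmp12, the macrophage metalloelastase, read 14.7, 6.49 and 8.37 CPM in treated and 0.318, 0.168 and 0.522 CPM in PBS aortas, a log2 fold change of 4.84 ± 0.78 (SE, edgeR adjusted p = 0.00351). Itgax, the integrin chain of CD11c, Cd72, a lectin-like coreceptor, and Fcgr4, a receptor for IgG, were named after their values were seen. Itgax read 22.2, 13.8 and 17.7 CPM in treated and 1.19, 0.7697 and 1.07 CPM in PBS aortas, Cd72 53.9, 38.3 and 22.9 against 2.298, 1.66 and 2.78 CPM, and Fcgr4 11.99, 10.7 and 11.1 against 0.281, 0.0962 and 0.545 CPM. The lowest treated library was above the highest PBS library for each, and they rose by 4.14, 4.09 and 5.14 on the log2 scale (edgeR adjusted p = 0.00223, 0.00223 and 0.00301).

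Spi1, the gene of the transcription factor PU.1 that sets the myeloid programme, read 29.8, 26.98 and 26.1 CPM in treated aortas against 3.61, 5.46 and 4.88 CPM in PBS aortas. It rose by 2.57 ± 0.40 (SE) on the log2 scale, with an edgeR adjusted p of 0.00301, and the groups did not overlap. The promoters below are shown because they belong to genes that rose and hold a PU.1 core motif or, for the MHC class II genes, a Y box. Each runs from 250 bases before to 50 bases after the start of the gene, 5′ to 3′ on the gene's strand, from RefSeq on GRCm38.p6, with the motif in capitals. The core was searched as GAGGAAGT on both strands, and a match on the opposite strand appears as its reverse complement. The Y box was searched as CTGATTGG on both strands. The windows lie at chr3:95526536-95526835 on the plus strand for Ctss, chr1:171018676-171018975 on the plus strand for Fcgr4, chr4:43454577-43454876 on the minus strand for Cd72, chr17:34287774-34288073 on the minus strand for H2-Aa and chr17:34305617-34305916 on the plus strand for H2-Eb1.
Ctss: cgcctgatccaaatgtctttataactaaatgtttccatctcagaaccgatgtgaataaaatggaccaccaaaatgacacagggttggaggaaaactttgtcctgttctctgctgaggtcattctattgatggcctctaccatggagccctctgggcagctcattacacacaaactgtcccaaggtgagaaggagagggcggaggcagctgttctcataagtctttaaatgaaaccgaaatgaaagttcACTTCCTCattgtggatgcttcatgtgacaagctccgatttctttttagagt
Fcgr4: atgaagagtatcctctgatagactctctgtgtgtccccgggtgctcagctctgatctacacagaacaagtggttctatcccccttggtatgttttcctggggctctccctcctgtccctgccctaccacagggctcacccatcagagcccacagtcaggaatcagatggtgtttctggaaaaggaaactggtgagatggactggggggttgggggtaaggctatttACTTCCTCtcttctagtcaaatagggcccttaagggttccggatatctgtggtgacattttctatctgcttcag
Cd72: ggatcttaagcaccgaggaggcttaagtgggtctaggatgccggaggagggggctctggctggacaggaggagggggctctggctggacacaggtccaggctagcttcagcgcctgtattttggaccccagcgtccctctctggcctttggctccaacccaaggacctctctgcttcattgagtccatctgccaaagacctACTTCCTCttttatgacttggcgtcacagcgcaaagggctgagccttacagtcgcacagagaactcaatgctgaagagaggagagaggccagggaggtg
H2-Aa: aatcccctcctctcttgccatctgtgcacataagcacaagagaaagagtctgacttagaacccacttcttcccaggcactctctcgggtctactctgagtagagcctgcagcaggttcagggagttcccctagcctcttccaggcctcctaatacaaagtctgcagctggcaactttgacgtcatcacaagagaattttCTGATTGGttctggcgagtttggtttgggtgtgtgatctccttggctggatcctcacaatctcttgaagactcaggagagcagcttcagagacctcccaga
H2-Eb1: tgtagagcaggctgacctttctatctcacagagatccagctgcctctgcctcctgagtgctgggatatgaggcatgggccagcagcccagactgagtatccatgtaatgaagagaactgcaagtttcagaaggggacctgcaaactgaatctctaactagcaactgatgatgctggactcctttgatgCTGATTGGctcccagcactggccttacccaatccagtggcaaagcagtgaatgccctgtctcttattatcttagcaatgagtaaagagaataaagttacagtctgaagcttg
The PU.1 core lies on the opposite strand in the first 3, starting at positions -2, -24 and -49 from the start of the gene. The Y box lies on the gene's strand at -51 in H2-Aa and -62 in H2-Eb1.

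Among the 399 genes that rose, 306 had a promoter in the RefSeq table, 369 promoters in all since some genes have several starts. The PU.1 core was in 12.7% of these 369 promoters, against 3.07% of the 18961 promoters of tested genes and 3.2% of all 32851 promoters. Within the macrophage list it was in 1 of 15 promoters (6.67%), and in the MHC class II list in 0 of 7. The windows of Fcgr1, C3ar1, Itgax, Cx3cr1 and Ccr2, which rose too, do not hold these letters. The Y box was in 4.88% of the promoters of genes that rose, against 5.09% of those of tested genes. It was in 3 of the 7 promoters of the MHC class II list (42.9%). The X1 box, searched as CCTAGCAAC on both strands, was in 1.36% of the promoters of genes that rose and in 0.881% of those of tested genes. Each promoter shown holds 1 of the exact runs searched, and none of them the letters CCTAGCAAC. An exact search misses boxes spelled otherwise: the H2-Eb1 window holds actagcaac ahead of its Y box. Whether these promoters lack an X box was therefore not settled. A match is a run of letters, not a measured binding site. Binding was not measured in these libraries.

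Most genes of antigen presentation by MHC class II rose. Of 9 members, 7 rose, and in all 9 the treated libraries lay above the PBS libraries, with a median log2 fold change of 1.97. H2-Aa, an α chain, read 294, 185 and 208 CPM in treated aortas against 45.2, 32.1 and 54.7 CPM in PBS aortas, a log2 fold change of 2.38 ± 0.41 (SE, edgeR adjusted p = 0.00571). H2-Eb1, a β chain, read 294, 186 and 199.6 CPM in treated and 43.8, 44.1 and 47.7 CPM in PBS aortas. Both were highest in treated replicate 1, and the groups did not overlap. H2-Ab1 and the peptide-loading chain H2-DMb1 rose by 2.22 and 1.59 on the log2 scale (edgeR adjusted p = 0.00763 and 0.00595). Ciita, the transactivator of these genes, read 18.7, 16.5 and 17.6 CPM in treated and 2.34, 2.36 and 3.11 CPM in PBS aortas, and rose by 2.76 ± 0.59 (SE, edgeR adjusted p = 0.0182). Without PBS replicate 1 or 2, 3 of the 9 members were called.

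Part of the chemokine and cytokine genes rose, from low levels. Of 20 members, 8 rose and none fell, all 20 had a positive log2 fold change, and the median was 3.67. Il1b, the gene of interleukin 1β, read 13.1, 20.6 and 45.6 CPM in treated aortas, against 1.04, 0.168 and 0.835 CPM in PBS aortas. Treated replicate 3 was the highest, and the log2 fold change was 5.24 ± 1.17 (SE, edgeR adjusted p = 0.0233). Cxcl1, which attracts neutrophils, had 13.97, 10.8 and 32.4 CPM in treated and 2.05, 0.962 and 1.22 CPM in PBS aortas, again with treated replicate 3 highest (log2 fold change 3.75 ± 0.70, edgeR adjusted p = 0.00817). The monocyte attractants Ccl8 and Ccl12 rose by 3.72 and 3.89 on the log2 scale (edgeR adjusted p = 0.0126 and 0.0133). Ccl2, the main ligand of Ccr2, read 15.4, 14.03 and 29.6 CPM in treated and 2.16, 0.409 and 2.18 CPM in PBS aortas and rose by 3.62 ± 0.90 (SE, edgeR adjusted p = 0.0444). Il6, an inflammatory cytokine of the wall, read 1.55, 11.6 and 40.9 CPM in treated aortas and 0.892, 0.216 and 0.684 CPM in PBS aortas. Its treated libraries differed widely among themselves, and it was not called (edgeR adjusted p = 0.118). Leaving out single PBS libraries left 0 to 2 of these genes called, with 0 without PBS replicate 2, and leaving out single treated libraries left 3 or 4.

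Neutrophil genes were scarce in all 6 libraries. Of 12 markers 3 rose, with a list median of 3.25, and the 12 together summed to 37.9, 63.2 and 58.6 CPM in treated and 7.702, 5.87 and 7.501 CPM in PBS aortas. Csf3r, the receptor for granulocyte colony-stimulating factor, read 18.2, 24.3 and 21.2 CPM in treated and 1.602, 1.35 and 1.53 CPM in PBS aortas and rose by 3.83 ± 0.65 (SE, edgeR adjusted p = 0.00468). Cxcr2, the receptor of Cxcl1, had 1.41, 4.33 and 4.17 CPM in treated and 0.342, 0.192 and 0.0464 CPM in PBS aortas. Trem1 had 1.97, 4.96 and 6.73 CPM in treated and 0.232, 0.0962 and 0.0927 CPM in PBS aortas. Treated replicate 1 was the lowest treated library for both genes, which rose with edgeR adjusted p of 0.0286 and 0.0309. The granule gene Ngp stayed under 1 CPM in every one of the 6 libraries. Without any one PBS library, or without treated replicate 2 or 3, 1 marker was called.

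Lymphocyte markers gave no call. None of 14 T and NK cell markers and none of 11 B and plasma cell markers passed the test, with medians of 0.29 and -0.18. Il7r, the interleukin 7 receptor, read 10.2, 4.32 and 3.96 CPM in treated and 0.758, 0.481 and 1.101 CPM in PBS aortas (edgeR adjusted p = 0.09995), and Cd4, also found on some myeloid cells, had 7.17, 5.58 and 3.15 against 0.844, 0.481 and 2.41 CPM. Both were higher in each treated library than in any PBS library without passing. At an unadjusted p under 0.05 there were 2 T and NK cell and 1 B and plasma cell markers, and DESeq2 called 1 and 0 of them.

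Of 14 complement genes 4 rose, with a median log2 fold change of 1.58: the receptors C3ar1 and C5ar1 and the C1q chains C1qb and C1qc. C3ar1 read 49.7, 44.97 and 33.5 CPM in treated aortas against 4.84, 1.59 and 5.67 CPM in PBS aortas and rose by 3.40 ± 0.51 (SE, edgeR adjusted p = 0.00301). C1qc had 111, 112 and 77.02 CPM in treated and 21.2, 23.96 and 39.5 CPM in PBS aortas (log2 fold change 1.82 ± 0.40, edgeR adjusted p = 0.0199). All of these are genes that macrophages make or carry. Of the 18 macrophage markers given above 12 rose as well, and a link between the lists was not tested. Of 16 interferon-stimulated genes only Mx1 was called, although all 3 treated libraries were above all PBS libraries in 15 of them and the median was 1.24. Mx1, an antiviral GTPase, had 30.7, 22.03 and 16.97 CPM in treated and 2.63, 1.01 and 1.19 CPM in PBS aortas and rose by 3.84 ± 0.72 (SE, edgeR adjusted p = 0.00873). A fit on the 6 libraries alone called 8 of the 16. Mx1 lost its call without PBS replicate 2 or 3, and the complement count was 1 without PBS replicate 1 or 2 and 2 without treated replicate 1 or 2.

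Vcam1, which holds monocytes and lymphocytes to the vessel wall, read 225, 182 and 256 CPM in treated aortas against 38.2, 28.2 and 42.004 CPM in PBS aortas, a log2 fold change of 2.61 ± 0.40 (SE, edgeR adjusted p = 0.00301). It was the 1 called member of 6 adhesion genes, whose median was 2.09. Smooth muscle and other cells of an inflamed wall can also express Vcam1. Selp, the gene of P-selectin, had 39.2, 32.9 and 63.8 CPM in treated and 18.1, 11.6 and 9.402 CPM in PBS aortas without passing the test (edgeR adjusted p = 0.0674). None of the 14 endothelial identity genes was called, with 8 at an unadjusted p under 0.05 by edgeR and 1 called lower by DESeq2. Their median log2 fold change was -0.56, and in 9 of the 14 all treated libraries lay below all PBS libraries. Nos3, the endothelial nitric oxide synthase, read 49.6, 29.4 and 41.2 CPM in treated and 72.7, 74.2 and 67.8 CPM in PBS aortas (log2 fold change -0.84 ± 0.25, edgeR adjusted p = 0.1098).

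**Figure D2:**
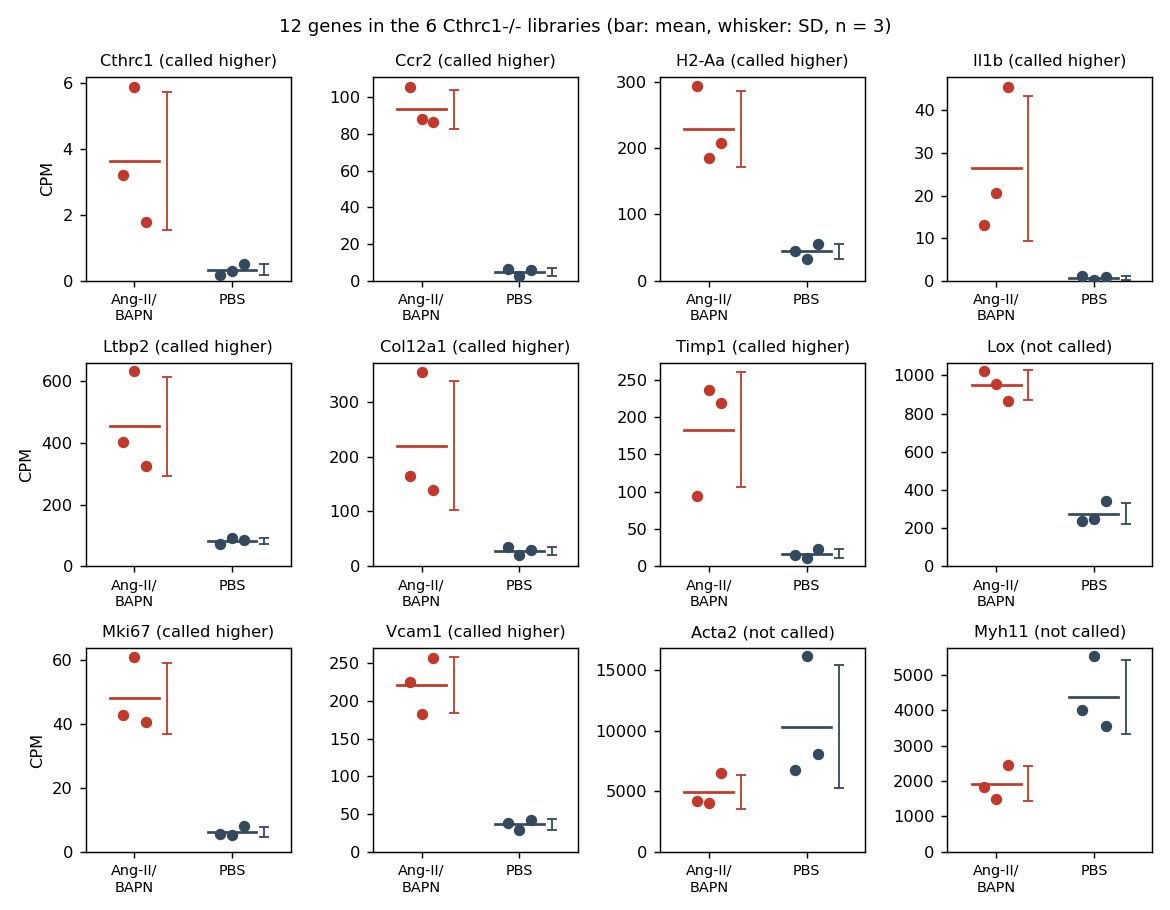
CPM of 12 genes (vertical axes, linear from 0) in the 3 Ang-II/BAPN libraries (red, left) and the 3 PBS libraries (dark, right) of Cthrc1-/- aorta, with the mean as a bar and the SD as a whisker (n = 3). The groups do not overlap for any of the 12 genes, including Lox, Acta2 and Myh11, which were not called.

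The lysyl oxidases, the enzymes that β-aminopropionitrile inhibits, had positive log2 fold changes in treated knockout aortas, and 1 of 5 passed the test. Loxl3 had 111, 178 and 121 CPM in treated and 52.8, 93.1 and 60.8 CPM in PBS aortas and rose by 0.98 ± 0.24 (SE, edgeR adjusted p = 0.0418). The call ended when any library but treated replicate 1 was left out. Lox, the founding member, read 1021, 957 and 864 CPM in treated aortas against 239, 248 and 339 CPM in PBS aortas. The libraries of the groups were far apart, but the log2 fold change of 1.78 ± 0.50 (SE) had an edgeR adjusted p of 0.0843. Loxl2 had 124, 241 and 216 CPM in treated and 77.03, 59.5 and 84.1 CPM in PBS aortas (edgeR adjusted p = 0.0765). The median of the 5 genes was 1.39. At an unadjusted p under 0.05 there were 4 of the 5 by edgeR. DESeq2 and voom with quality weights each called 4 higher, while edgeR with RLE scaling called 0.

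Elastic fibre genes rose in part. Of 15 members 3 rose, with a median of 0.61. Ltbp2, a microfibril-associated protein of the latent TGF-β binding family, read 404, 632 and 324 CPM in treated aortas against 72.2, 90.7 and 83.5 CPM in PBS aortas. Its log2 fold change was 2.46 ± 0.31 (SE, edgeR adjusted p = 0.00143), and the call held without any single library. Mfap5, another microfibril protein, and Fbln2, which binds elastin and fibrillin, rose by 1.42 and 1.22 on the log2 scale (edgeR adjusted p = 0.0393 and 0.0293). Elastin itself was not called: Eln read 12889.9, 10179.8 and 10960.3 CPM in treated and 4081, 8353 and 4520.0 CPM in PBS aortas. PBS replicate 2 was the nearest to the treated libraries, without overlap, and the log2 fold change was 1.01 ± 0.54 (SE, edgeR adjusted p = 0.519). Without any one PBS library or without treated replicate 2, 1 of the 15 genes was called.

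Among collagens, the main fibrillar chains were not among the genes called in the main edgeR fit. Of 15 fibrillar and beaded collagen genes 3 rose, with a median of 1.17. Col12a1, a collagen that sits on fibril surfaces, read 165, 355 and 139 CPM in treated aortas against 34.6, 20.2 and 30.3 CPM in PBS aortas, a log2 fold change of 2.96 ± 0.52 (SE, edgeR adjusted p = 0.00638). Col8a1, a short network-forming collagen of injured arteries, had 174, 415 and 183 CPM in treated and 47.4, 36.3 and 39.8 CPM in PBS aortas. Treated replicate 2 was the highest library for both. Col5a2, which starts collagen fibrils, read 879, 1343 and 925 CPM in treated and 328, 371 and 358 CPM in PBS aortas and rose by 1.57 ± 0.29 (SE, edgeR adjusted p = 0.00759). The main fibrillar chains did not pass, although every treated library was above every PBS library: Col1a1 had 9411, 14182 and 6816 CPM in treated and 4151, 4926 and 4449.6 CPM in PBS aortas (log2 fold change 1.17 ± 0.41, edgeR adjusted p = 0.209). Col3a1 had 8871, 15240.5 and 8269 CPM in treated and 4878, 4361 and 5035 CPM in PBS aortas (log2 fold change 1.18 ± 0.38, edgeR adjusted p = 0.154). Without PBS replicate 2 none of the 15 was called, without PBS replicate 1 only 1, and 2 without PBS replicate 3 or treated replicate 2. DESeq2 called 5 of the 15 higher and voom with quality weights 8. Col1a1 was called under 1 of 18 alternatives and Col3a1 under 2.

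Basement membrane genes gave no call among 13 (median 0.17, 2 at an unadjusted p under 0.05 by edgeR and 0 called by DESeq2), and of 15 collagen folding enzymes only P4ha3 was called. P4ha3, a subunit of collagen prolyl 4-hydroxylase, had 8.45, 28.2 and 9.65 CPM in treated and 3.01, 1.73 and 2.81 CPM in PBS aortas, with treated replicate 2 well above the other 2 (log2 fold change 2.61 ± 0.61, edgeR adjusted p = 0.0318). It lost its call without any one PBS library or without treated replicate 2.

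Of 20 genes of activated fibroblasts 6 rose, and the median log2 fold change was 1.62. Timp1, an inhibitor of metalloproteinases, read 94.8, 237 and 218 CPM in treated aortas against 14.95, 11.5 and 22.98 CPM in PBS aortas and rose by 3.48 ± 0.70 (SE, edgeR adjusted p = 0.0127). Comp, a matrix protein of tendon, cartilage and injured vessels, had 38.1, 368 and 168 CPM in treated and 16.3, 23.6 and 35.8 CPM in PBS aortas. Its treated libraries differed by more than 5 times, with replicate 1 near the highest PBS value (log2 fold change 2.92 ± 0.65, edgeR adjusted p = 0.0228). Itga11, a collagen receptor of fibroblasts, rose by 2.18, and Fap, a fibroblast surface protease, and Ccn4, a matricellular protein of the Wnt response, rose by 1.79 and 1.75 on the log2 scale (edgeR adjusted p = 0.0239 and 0.0154). Lum, the gene of the proteoglycan lumican, counted here among resting adventitial fibroblast markers, read 818, 1405 and 819.8 CPM in treated and 189, 154 and 323 CPM in PBS aortas and rose by 2.19 ± 0.48 (SE, edgeR adjusted p = 0.0199). With Mfap5 it was 1 of 2 called among those 14 markers (median 0.60), and none of the 14 was called without PBS replicate 1 or 2 or treated replicate 2. Of the 14, 3 had a negative log2 fold change, the lowest -1.85, and in 2 all treated libraries lay below all PBS libraries. The fit on the 6 libraries alone called 1 of the 14 higher and 1 lower, and voom with quality weights 2 and 2. Without PBS replicate 1 or 2 none of the 20 activated fibroblast genes was called, without treated replicate 2 only 1, and without PBS replicate 3 only 2.

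Of 19 matrix protease genes 5 rose, with a median of 1.21. Besides Ctss and Mmp12, they included Mmp3, the stromelysin, with 182, 180.1 and 244 CPM in treated and 23.1, 30.7 and 74.4 CPM in PBS aortas (log2 fold change 2.24 ± 0.45, edgeR adjusted p = 0.01202). Mmp14, a membrane-bound collagenase, had 227, 393 and 206 CPM in treated and 86.6, 113 and 81.5 CPM in PBS aortas (log2 fold change 1.56 ± 0.34, edgeR adjusted p = 0.02005). The groups did not overlap for either gene. Mmp19 was the other called member, with a log2 fold change of 1.23. Among 10 protease inhibitors only Timp1 was called, and without PBS replicate 1 or 2 none. The count of called proteases was 2 without PBS replicate 1 or 2, and 3 without PBS replicate 3 or treated replicate 2.

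Of 13 osteochondrogenic genes, which mark a bone- or cartilage-like state of vascular cells, 3 rose, with a list median of 1.05. Another 4 had a negative log2 fold change, the lowest -3.06, and 0 were called lower. In 1 gene all treated libraries lay below all PBS libraries. Runx2, the master transcription factor of bone, had 6.45, 8.14 and 4.67 CPM in treated aortas against 0.941, 0.986 and 1.36 CPM in PBS aortas and rose by 2.55 ± 0.40 (SE, edgeR adjusted p = 0.00301). The groups did not overlap, and the call held without any single library. Comp and Acan, the gene of aggrecan, were the other called members and are also on the activated fibroblast list. Acan read 19.01, 48.5 and 27.1 CPM in treated and 5.39, 5.94 and 7.58 CPM in PBS aortas (edgeR adjusted p = 0.0452). Without any one PBS library or without treated replicate 2, 1 of the 13 was called.

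Contractile genes of smooth muscle pointed the other way without reaching the threshold. All 18 had a negative log2 fold change, with a median of -0.88, and in 10 of them all treated libraries were below all PBS libraries, but none was called. Tpm2, a tropomyosin, had the smallest p, with 543, 419 and 628 CPM in treated and 937, 1682 and 930.4 CPM in PBS aortas (log2 fold change -1.16 ± 0.35, edgeR adjusted p = 0.122). Myh11, the smooth muscle myosin heavy chain, read 1846, 1489 and 2450.1 CPM in treated aortas against 4015, 5555 and 3554 CPM in PBS aortas (log2 fold change -1.18 ± 0.53, edgeR adjusted p = 0.392). Acta2, smooth muscle α-actin, had 4172, 4072 and 6551 CPM in treated and 6751, 16200.2 and 8108 CPM in PBS aortas (log2 fold change -1.07 ± 0.46, edgeR adjusted p = 0.361). The 18 genes summed to 12959, 11818 and 18709 CPM in treated and 21820.1, 43062 and 23037 CPM in PBS aortas, with PBS replicate 2 highest. Without PBS replicate 2 the median was -0.54. At an unadjusted p under 0.05 there were 11 of the 18 by edgeR, and DESeq2 called 3 lower. Regulators of this programme (12 genes, median -0.12) and smooth muscle ion channels (13 genes, median -0.43) also gave no call, with 1 and 3 genes at an unadjusted p under 0.05 by edgeR and none called by DESeq2.

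Proliferation genes were higher in every treated library, but few passed the test. In all 22 cell cycle genes the 3 treated libraries lay above the 3 PBS libraries, the median log2 fold change was 2.09, and 3 were called. Mki67, the proliferation antigen, read 42.7, 60.8 and 40.5 CPM in treated aortas against 5.501, 5.08 and 7.895 CPM in PBS aortas (log2 fold change 2.96 ± 0.54, edgeR adjusted p = 0.00759). Cenpf, a kinetochore protein, and Ccnb2, a mitotic cyclin, rose by 2.72 and 2.15 on the log2 scale (edgeR adjusted p = 0.0171 and 0.0366). Treated replicate 2 was the highest for all 3 genes. DESeq2 called 15 of the 22 and the fit on the 6 libraries alone 16, while none was called without PBS replicate 1 or 2 and 1 without treated replicate 2.

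**Figure D3:**
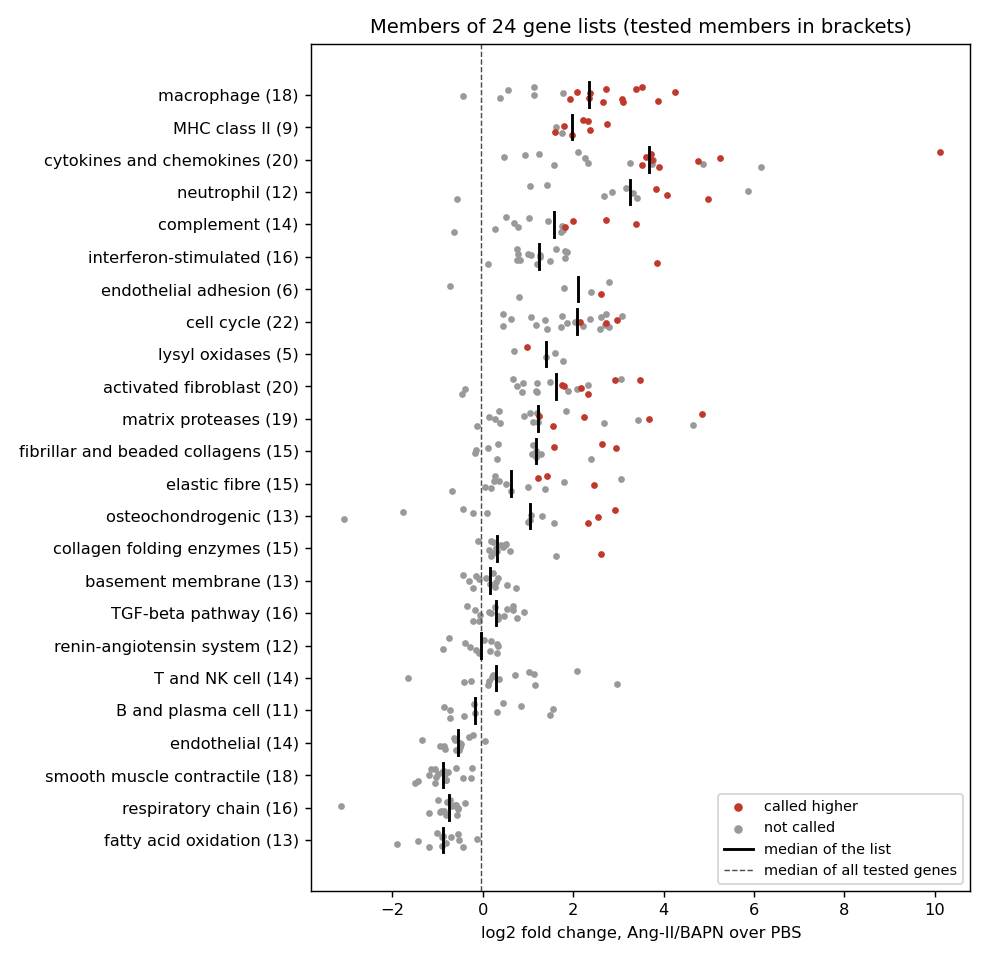
Each point is the log2 fold change (horizontal axis, Ang-II/BAPN over PBS) of 1 tested member of a gene list (down the page, with the number of tested members in brackets), red where called higher and grey where not called. Black ticks are list medians and the dashed line is the median of all tested genes, -0.05. All 9 MHC class II members lie to the right of 0 and all 18 contractile members to the left.

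Signalling lists gave few calls. The 16 TGF-β pathway genes (median 0.29), the 12 genes of the renin-angiotensin system (median -0.03) and the 13 endoplasmic reticulum stress genes (median 0.31) gave no call, with 2, 0 and 0 genes at an unadjusted p under 0.05 by edgeR and 2, 0 and 0 calls by DESeq2. Agtr1a, the main angiotensin II receptor of the wall, read 5.45, 13.6 and 14.6 CPM in treated and 23.5, 5.82 and 27.2 CPM in PBS aortas, with overlapping groups. Smad3, a TGF-β signal transducer, had 45.1, 62.5 and 61.996 CPM in treated and 33.1, 36.1 and 31.1 CPM in PBS aortas, apart but not called (edgeR adjusted p = 0.0913). Of 17 Wnt pathway genes Ror2 was called. Ror2, a receptor for Wnt5a, had 5.997, 15.3 and 6.04 CPM in treated and 2.34, 1.47 and 2.37 CPM in PBS aortas and rose by 2.14 ± 0.41 (SE, edgeR adjusted p = 0.00878). Of 15 immediate early genes Junb, an AP-1 subunit, was called, with 231, 110.0 and 168 CPM in treated and 78.2, 73.99 and 49.8 CPM in PBS aortas (edgeR adjusted p = 0.0358). The call of Ror2 was lost without PBS replicate 1 or 2 or treated replicate 2, and that of Junb without any library but treated replicate 2.

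Metabolic lists lay below 0 without calls. At an unadjusted p under 0.05 edgeR gave 12 respiratory chain, 6 fatty acid oxidation and 6 brown adipocyte genes, and DESeq2 called 1, 0 and 2 lower. Respiratory chain genes (16) had a median of -0.76, fatty acid oxidation genes (13) -0.89, and brown adipocyte genes (10) -1.59. Without PBS replicate 2 these medians were -0.57, -0.57 and -0.83. All treated libraries were below all PBS libraries in 14 of the 16 and in 11 of the 13. Cidea, a lipid droplet protein of brown fat, read 108, 58.3 and 63.04 CPM in treated and 207, 898 and 173 CPM in PBS aortas, and PBS replicate 2 was far above the rest (edgeR adjusted p = 0.116). Ucp1, the defining gene of brown fat, read 63.6, 51.8 and 41.7 CPM in treated and 92.9, 685 and 149 CPM in PBS aortas, highest in the same library. The summed brown adipocyte markers were 451, 399.6 and 416 CPM in treated and 511, 2023 and 598 CPM in PBS aortas, highest in PBS replicate 2. Their part in the lower metabolic lists was not tested. Clock genes (14) had a median of 0.08, with no call by edgeR or DESeq2 and 0 at an unadjusted p under 0.05.

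The genes that fell were few, and the 8 largest falls among those the naming rule covers were Slc22a7, Xist, Synpo2l, Nrip2, Pcp4l1, Dll1, Mettl24 and Sel1l3. Dll1, a Notch ligand, read 10.3, 5.56 and 9.096 CPM in treated aortas against 23.97, 24.8 and 21.3 CPM in PBS aortas, a log2 fold change of -1.49 ± 0.28 (SE, edgeR adjusted p = 0.00889). Nrip2, a nuclear receptor interacting protein, had 15.1, 10.1 and 12.4 CPM in treated and 40.8, 45.7 and 28.6 CPM in PBS aortas (log2 fold change -1.61 ± 0.38, edgeR adjusted p = 0.0333). Synpo2l, an actin-associated protein of muscle, had 6.36, 4.24 and 3.56 CPM in treated and 12.6, 19.96 and 12.7 CPM in PBS aortas (log2 fold change -1.67 ± 0.38 SE). Pcp4l1 read 68.4, 48.997 and 65.7 CPM in treated and 124, 259 and 142 CPM in PBS aortas (edgeR adjusted p = 0.0449). All 4 were lower in each treated library than in any PBS library, and each lost its call without PBS replicate 1 or 2.

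Xist, the RNA that coats the inactive X chromosome, stood at 0.131, 0.217 and 0.236 CPM in treated aortas and 13.02, 2.91 and 12.1 CPM in PBS aortas. The log2 fold change was -5.59 ± 0.91 (SE, edgeR adjusted p = 0.00357), and the call held without any single library, though not by limma on FPKM. These levels are far under the 186 CPM of the lowest F-titled library, and Ddx3y was high in all 6. Slc22a7, an organic anion transporter of kidney and liver, read 0.0581, 0 and 0 CPM in treated and 3.62, 2.72 and 8.19 CPM in PBS aortas (log2 fold change -7.74 ± 1.57, edgeR adjusted p = 0.0131), and lost its call without treated replicate 2 or 3. Kidney tubule markers summed to 760.4, 23.8 and 122 CPM in treated and 381, 352 and 2768 CPM in PBS aortas, highest in PBS replicate 3, where Slc22a7 was also highest. The order differed elsewhere: treated replicate 1 had a higher kidney sum than PBS replicates 1 and 2 but less Slc22a7. The part of kidney transcripts in the Slc22a7 difference was not tested.

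The largest rises included genes of brain that aorta does not normally make, and Cela1, a gene of pancreas, was called higher too. Mobp, a myelin protein of the central nervous system, read 30.8, 32.4 and 2.95 CPM in treated aortas and had no count in any PBS aorta, so that it was at least 1654-fold higher by a floor of 3 counts over the pooled PBS libraries. Slc32a1, the vesicular transporter of inhibitory neurons, had 7.38, 6.98 and 0.866 CPM in treated aortas and no count in PBS aortas, at least 380.1-fold higher by the same floor. Camkv, a neuronal protein, had 18.04, 18.4 and 1.75 CPM in treated and 0.147, 0 and 0.0464 CPM in PBS aortas. In all 3 genes treated replicates 1 and 2 were about level and replicate 3 far lower. Exocrine pancreas genes showed the same order: Cela1, an elastase, read 353, 456 and 56.4 CPM in treated and 5.21, 3.44 and 49.6 CPM in PBS aortas, and Amy2a5, an amylase, 713, 818 and 66.03 CPM in treated and 0.0611, 0.361 and 44.7 CPM in PBS aortas. PBS replicate 3 also held these pancreatic messages, and Amy2a5 was not called (edgeR adjusted p = 0.425). Mobp lost its call without PBS replicate 1 or 2, Slc32a1 without any library, Camkv without any but treated replicate 3, and Cela1 without PBS replicate 1 or 2 or treated replicate 1 or 2.

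Markers of those organs, listed after the values were seen, were counted as wholes. Of 20 brain markers 5 were called, and the 20 summed to 416, 562 and 223 CPM in treated and 375, 72.3 and 308 CPM in PBS aortas and overlapped. The count was 0 without PBS replicate 1 or 2, 1 without PBS replicate 3, 2 without treated replicate 1 or 2, and 6 without treated replicate 3. Syt1, a synaptic vesicle protein of neurons, read 17.8, 107 and 73.5 CPM in treated and 149.6, 8.06 and 155 CPM in PBS aortas, also with overlap. Of 14 exocrine pancreas markers only Cela1 was called, and the 14 summed to 4210.1, 5219 and 541 CPM in treated and 7.84, 7.89 and 415 CPM in PBS aortas. Among the 399 genes that rose, 13 differed by more than 5 times between treated libraries, and 10 of these 13 were lowest in treated replicate 3. The macrophage, matrix and cell cycle genes described above are not among the 13, except Comp. With the summed brain, pancreas and kidney markers as 3 covariates no gene was called (edgeR, smallest adjusted p 0.346, 987 genes at an unadjusted p under 0.05), and all 399 genes kept a positive log2 fold change, with a median of 2.13. The pancreas sums did not overlap between treated and PBS libraries, while the brain and kidney sums did. How far the covariates take up the treatment contrast was not tested, nor was the part of tissue carried along.

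**Figure D4:**
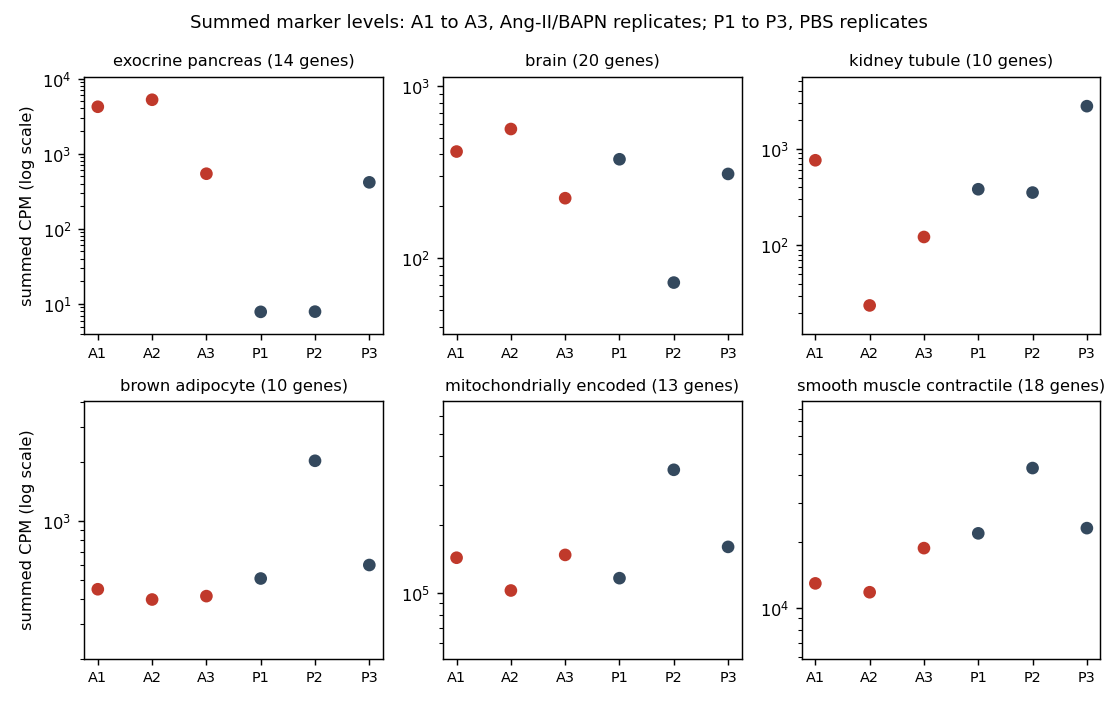
Summed CPM (vertical axes, log scale) of 6 marker lists in each Ang-II/BAPN library (A1 to A3, red) and each PBS library (P1 to P3, dark) of Cthrc1-/- aorta. Pancreas markers are high in A1 and A2 and lower in A3 and P3, kidney markers peak in P3, and brown adipocyte, mitochondrial and contractile sums peak in P2.

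The other rises among the 8 largest were Cd300lf, Saa3, Sirpb1a, Sirpb1b and Sirpb1c. Cd300lf, an inhibitory receptor of myeloid cells, had 10.5, 9.65 and 12.5 CPM in treated and 0.367, 0 and 0.232 CPM in PBS aortas (log2 fold change 5.67 ± 1.01, edgeR adjusted p = 0.00759). Saa3, a serum amyloid protein made by macrophages and fat, read 21.1, 42.5 and 63.7 CPM in treated and 1.85, 0.0481 and 1.02 CPM in PBS aortas, highest in treated replicate 3. Sirpb1a, Sirpb1b and Sirpb1c, a family of near-identical signal regulatory proteins, rose by 5.59, 5.45 and 6.22 on the log2 scale. How reads were split among these copies is not given in the sources used here, so that their separate values are uncertain. In all of these genes the groups did not overlap.

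The 399 genes were mostly called in the F-titled knockout and the wild type responses too, each of which held more calls. The F-titled knockout response had 1083 genes higher (4.4%) and 522 lower (2.12%), and the wild type response of the plain set 1161 higher (4.72%) and 959 lower (3.89%). These 3 responses share no library, but they come from the same fit, with a shared gene filter and estimate of spread. Their calls are therefore not independent of each other. Of the 399 genes that rose here, 353 (88.5%) were also called higher in F-titled knockout aortas, where they are 32.6% of the calls, and 350 (87.7%) in wild type aortas, where they are 30.1% of the calls. Of the 19 that fell, 13 (68.4%) and 14 (73.7%) were also called lower there, 2.49% and 1.46% of the calls. None was called in the opposite direction. The median log2 fold change of the 399 genes was 2.57 in this response, 2.60 in F-titled knockout aortas and 2.67 in wild type aortas.

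The edgeR tests of the differences themselves called no gene. Of 24623 genes, 0 (0%) differed between the plain-title and F-titled knockout responses, with 931 (3.78%) at an unadjusted p under 0.05 and a smallest adjusted p of 0.267. Against the wild type response 0 genes (0%) differed, with 1665 (6.76%) at an unadjusted p under 0.05 and a smallest adjusted p of 0.108. DESeq2 called 76 genes in each of these comparisons, limma on FPKM 0 and 14, and limma voom with library weights 0 and 832. Contractile genes had a median of -0.88 in this response, -0.94 in F-titled knockout aortas and -2.17 in wild type aortas. For Myh11 the plain-title knockout response differed from that of wild type by 1.68 ± 0.75 (SE) on the log2 scale, -1.18 against -2.86, with an edgeR adjusted p of 0.7296. Acta2 gave a difference of 1.11 ± 0.64 (SE, edgeR adjusted p = 0.765). T and NK cell markers had medians of 0.29, 0.59 and 2.90, and B and plasma cell markers -0.18, 0.54 and 3.20, in the same order of responses. Igkc, the κ light chain, differed from its wild type response by -2.54 ± 1.33 (SE, edgeR adjusted p = 0.757). Cthrc1 itself rose by 3.45 in knockout and 4.80 in wild type aortas of the plain set, a difference of -1.34 ± 0.80 (SE, edgeR adjusted p = 0.773).

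**Figure D5:**
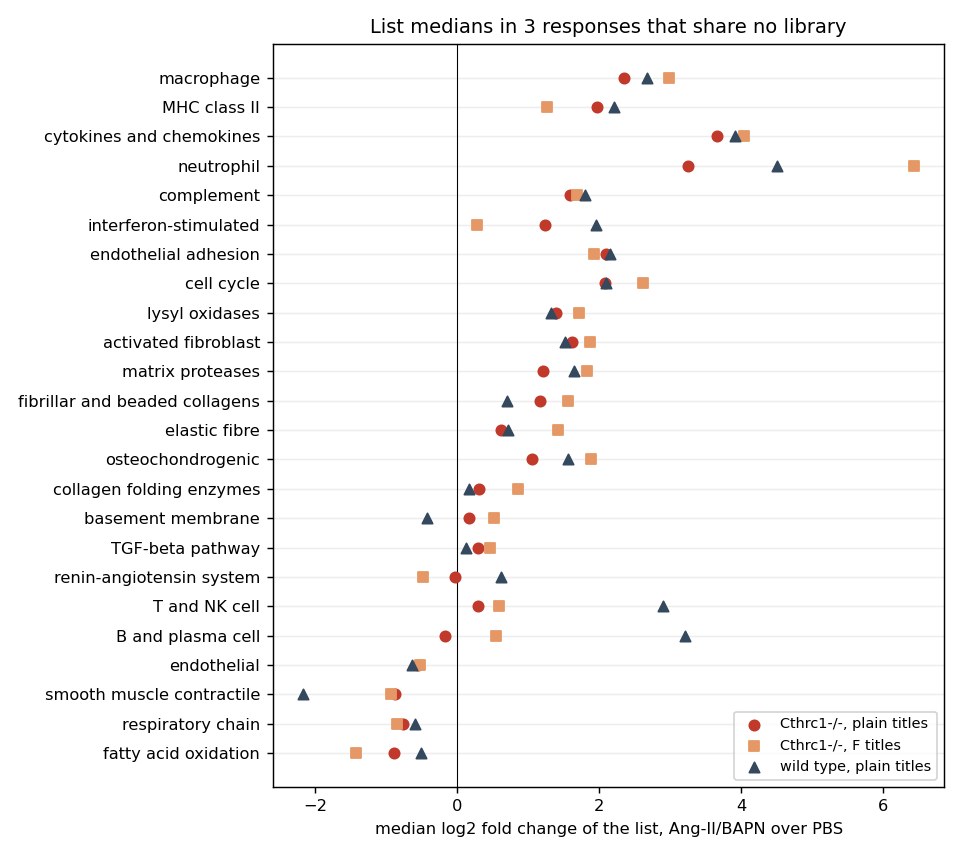
Median log2 fold change (horizontal axis, Ang-II/BAPN over PBS) of 24 gene lists in 3 responses: Cthrc1-/- of the plain set (circles), Cthrc1-/- of the F set (squares) and, as the comparison, wild type of the plain set (triangles). Macrophage, cytokine and cell cycle medians are above 2 in all 3, while contractile, T cell and B cell medians are furthest from the other 2 in wild type. No gene passed the edgeR test of a difference, while DESeq2 called 76 genes against each of the other responses.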

How the data were processed

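Libraries of mouse aorta were made with a TruSeq Stranded Total RNA kit and read as 150-bp pairs on an Illumina HiSeq, per the labels' protocols. For each of 40141 genes the deposited table gives a read count and an FPKM value in every library, per the file headers. The submitters' processing notes name HISAT2, StringTie, DESeq2 and GRCm38 without versions. Which program counted, with which annotation and strand setting, was not given in the sources used here, so antisense reads may be counted with their partner gene. A further 4 columns, of 2 libraries outside the labels used here, entered no step.

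The deposited counts were analysed in R 4.3.3 with edgeR 4.0.16. Genes were kept by filterByExpr over the 8 groups, with a minimum count of 10 and a minimum total of 15, which leaves 24623 genes and drops 15518. Libraries were scaled by TMM, and 8 group means over all 24 libraries were fitted by robust quasi-likelihood, with Benjamini-Hochberg adjustment over all kept genes and a threshold of 0.05. The biological coefficient of variation was 57.0%, against total counts of 39002048 to 82040703 reads, so that spread between samples and not counting sets the precision. Bounds from a floor of 3 counts cover counting error only. No replicates agreed within sampling noise (chi-square per degree of freedom of at least 99.2).

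The genes and lists were chosen with earlier results of these data known. There were 48 lists, and 10 more, on brain, pancreas and myeloid and mitotic families, came after values were seen. Some of their results are not reported here. Named were Cthrc1, the 8 largest rises and 8 largest falls among called genes with a mean of at least 2 CPM, a proper symbol and no overlap between groups, and in each list up to 4 called genes of smallest p, or the 2 genes of smallest p where fewer than 2 were called. Other list members are given as levels. Acta2, Amy2a5, Ccl2, Ciita, Cd72, Col1a1, Col3a1, Cxcl10, Eln, Fcgr4, Il6, Itgax, Lox and Myh11 were picked with their values in view.

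The alternatives comprised RLE scaling, DESeq2 1.42.0, limma 3.58.1 on log2(FPKM + 1) of the deposited FPKM values, no filter, a filter at a mean of 1 CPM, a replicate block, a fold change of at least 2, the 6 libraries alone and each library left out. Chosen after seeing the data were a fit lacking mitochondrial genes, voom with quality weights, 3 organ covariates, and the removal of 5 libraries above 3 CPM of Rn7sk.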

Additional observations from a re-analysis of the deposited data

How the results depend on the processing

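The count of 418 genes that changed held within 1.5 times under RLE size factors, limma on FPKM, both filters and the fit without mitochondrial genes. It was 1006 by DESeq2, 648 with only the 6 libraries compared, 1749 by voom with quality weights, 234 without the 5 libraries with high Rn7sk, 74 for a fold change of at least 2, and 0 with the organ covariates. Leaving out 1 library gave 73 to 308. The test for a fold change of at least 2 asks for more. Leaving out a library leaves fewer samples, each time the same number, and what set the range of 73 to 308 was not tested. For the other settings the cause was not tested either.

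With the replicate number as a block the count was 191, of which 185 were among the 418 genes called without it. The labels do not say whether the numbers pair these libraries. Deviations of same-numbered treated and PBS libraries correlated at -0.317, -0.0548 and -0.124, and no library correlated best with its own number. So few libraries cannot settle whether they were paired. What lowered the count was not tested, and the block is no evidence of a weaker effect.

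The test of a difference from the F-titled knockout response called 0 genes, 76 by DESeq2, and 0 to 1 when 1 library was left out. That from the wild type response called 0, 76 by DESeq2, 14 by limma on FPKM, 832 by voom, and 0 to 1 when 1 library was left out. The other alternatives gave 0.

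Of the 399 rises, the 360 to 399 tested under each alternative kept their sign, with medians of 1.53 on the log2(FPKM + 1) scale to 2.76. The median over all genes stayed within 0.1 of 0 throughout. Over 170 named genes, 2416 alternative values kept sign and call, 541 lost the call, 59 gained it and 18 changed sign, all of these for genes that were not called. With organ covariates the log2 fold change became 0.60 for Actc1, 1.49 for Agr2, -1.47 for Amy2a5, -0.51 for Cpb1, 0.045 for Per2, 3.48 for Rmrp, 0.59 for Rn7sk and 0.52 for Slc22a6. Under voom it was 1.999 for Rmrp, 0.38 for Rn7sk and -0.25 for Slc4a1, without the 5 high-Rn7sk libraries 2.34 for Rmrp and 0.69 for Rn7sk, and with the replicate block -0.088 for Slc4a1. Leaving out 1 library, it ran over -3.28 to 2.32 for Rmrp, -2.12 to 0.67 for Rn7sk, -8.51 to 0.38 for Dntt and -0.99 to 1.17 for Slc4a1.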

Other observations

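Families chosen after the values were seen showed which myeloid parts were called, and their counts support nothing beyond these values. All 5 Fc receptor genes of the IgG group rose, with a median log2 fold change of 2.35. Without PBS replicate 2 only 1 of them was called, and without PBS replicate 1, 3. Of 12 Toll-like receptors 6 rose, among them Tlr9 and Tlr13, sensors of microbial DNA and RNA, by 4.39 and 3.50. Tlr9 read 9.47, 6.85 and 5.22 CPM in treated and 0.452, 0.265 and 0.301 CPM in PBS aortas, far apart in every library. The count was 3 without PBS replicate 1 or 2. Of the 6 subunits of the phagocyte NADPH oxidase 4 rose, and 2 of them without PBS replicate 1 or 2 or treated replicate 2. Cybb, its catalytic chain, read 56.7, 40.9 and 37.3 CPM in treated and 6.602, 2.84 and 6.32 CPM in PBS aortas and rose by 3.09 ± 0.49 (SE, edgeR adjusted p = 0.00326).

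In all 11 inflammasome genes the treated libraries lay above the PBS libraries, and 5 rose. Nlrp3, the best-known sensor, rose by 3.02. The count was 0 without PBS replicate 1 or 2, 1 without PBS replicate 3, 2 without treated replicate 1 or 2, and 3 without treated replicate 3. Of 11 genes that signal below myeloid receptors 8 rose, among them the kinase Fgr, by 3.39. The count was 2, 1 and 5 without PBS replicates 1, 2 and 3, and 5, 4 and 5 without treated replicates 1, 2 and 3. All 13 mitotic kinesins were higher in every treated than in any PBS library, and 7 rose. Kif2c, which depolymerises microtubules, read 3.31, 7.58 and 3.13 CPM in treated and 0.489, 0.265 and 0.858 CPM in PBS aortas. That count was 0 without PBS replicate 1 or 2, 1 without PBS replicate 3 or treated replicate 2, and 4 without treated replicate 3.

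Lists with no call that are not described above were mast cells, coagulation, hypoxia and glycolysis, general adipocytes, red blood cells, cardiac and skeletal muscle, nerve, kidney, intestine, thymus and abundant noncoding RNA, with medians from -1.13 for kidney to 0.62 for coagulation. At an unadjusted p under 0.05 edgeR gave 0 to 5 genes in each of these lists, the most in coagulation, and DESeq2 called 1 coagulation gene higher and 1 intestinal gene lower.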
